A study of Mus musculus with 4 samples.

Results

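The genes described here are the chains of the interleukin-12 family of cytokines and of the IL-12 receptor, chosen by name: Il12a, Il12b, Il23a, Il27, Ebi3, Il12rb1 and Il12rb2, which are 7 of the 19059 genes measured. RNA was measured per cell in live CD45+ cells sorted from subcutaneous MC38 tumors, a mouse colon carcinoma line, that grew in C57BL/6 mice carrying human CTLA-4 (B-hCTLA-4). The cells were fixed and hybridized with barcoded gene probes (10x Chromium Flex), and unique molecular identifiers (UMIs) were counted per gene and cell.

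Each of the 4 groups was 1 library made from 11 pooled mice, and every mouse had received MC38 cells under the skin, 3 treatments from a tumor volume of about 100 mm3, and was sampled on day 8 after the first. The isotype control group received human IgG1 at 10 mg/kg. The group titled anti-human CTLA-4 received ipilimumab at 10 mg/kg by its title, the group titled anti-mouse FcgRII received the antibody AT130-2 with a mouse IgG1 N297A constant region at 20 mg/kg by its title, and the combination received both. For both single-antibody libraries the treatment field of the labels names the other antibody, so these libraries are called by their titles throughout, and the labels alone do not settle which antibody each received. The doses, day, starting volume and number of mice are those of the labels, and the paper gives other values for some of them, the number of tumors per group included. All groups share the human CTLA-4 gene and the tumor line. The labels give no age for the mice and assign all libraries to batch 1.

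The cytokines of this family are pairs of chains. IL-12 joins p35 (Il12a) to p40 (Il12b), IL-23 joins p19 (Il23a) to the same p40, IL-27 joins p28 (Il27) to EBI3 (Ebi3), and IL-35 joins p35 to EBI3. IL-12 and IL-23 come mainly from activated dendritic cells, monocytes and macrophages. IL-12 binds a receptor made of Il12rb1 and Il12rb2 on T cells, NK cells and innate lymphoid cells, acts through STAT4 and drives interferon gamma, while IL-23 uses Il12rb1 with Il23r, and IL-27 uses Il27ra with Il6st.

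All places below are on GRCm38 (mm10) with GENCODE vM21, and all 7 genes are protein coding. Il12a (ENSMUSG00000027776) spans chr3:68690644-68698547 on the plus strand. Il12b (ENSMUSG00000004296) spans chr11:44400063-44414033 on the plus strand. Il23a (ENSMUSG00000025383) spans chr10:128296139-128298752 on the minus strand. Il27 (ENSMUSG00000044701) spans chr7:126589010-126594941 on the minus strand. Ebi3 (ENSMUSG00000003206) spans chr17:55952640-55957022 on the plus strand. Il12rb1 (ENSMUSG00000000791) spans chr8:70808449-70821424 on the plus strand. Il12rb2 (ENSMUSG00000018341) spans chr6:67291318-67376188 on the minus strand.

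Promoter sequences from the RefSeq table for GRCm38.p6 are shown for both chains of IL-12, because most of their UMIs lay in different classes here. The promoter of the receptor chain Il12rb2, whose level was highest in lymphocytes, is shown as well. Each is the 250 bases before the start of transcription, 5′ to 3′ on the gene's own strand, with motif matches in capitals. Il12a lies at chr3:68690394-68690643 (plus; the table also holds a start at chr3:68691174-68691423), Il12b at chr11:44399813-44400062 (plus) and Il12rb2 at chr6:67376189-67376438 (minus).
Il12a: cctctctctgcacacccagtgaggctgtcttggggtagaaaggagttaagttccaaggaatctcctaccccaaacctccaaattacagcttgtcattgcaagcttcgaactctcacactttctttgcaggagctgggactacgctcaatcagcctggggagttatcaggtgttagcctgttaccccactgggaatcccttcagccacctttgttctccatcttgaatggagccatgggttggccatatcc
Il12b: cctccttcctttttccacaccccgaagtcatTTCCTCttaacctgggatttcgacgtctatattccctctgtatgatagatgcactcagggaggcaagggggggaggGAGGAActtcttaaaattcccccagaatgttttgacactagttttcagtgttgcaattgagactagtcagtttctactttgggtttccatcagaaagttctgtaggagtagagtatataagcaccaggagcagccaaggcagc
Il12rb2: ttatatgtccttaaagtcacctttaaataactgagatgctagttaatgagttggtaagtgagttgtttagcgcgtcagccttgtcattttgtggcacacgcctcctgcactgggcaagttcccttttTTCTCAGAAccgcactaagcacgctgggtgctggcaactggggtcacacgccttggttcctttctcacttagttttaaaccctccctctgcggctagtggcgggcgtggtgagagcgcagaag
The capitals mark the core TTCCTC of ETS factors on either strand in Il12b and the pattern TTCNNNGAA that STAT factors bind (GAS) in Il12rb2. Neither Il12a window held a match to any motif searched. The motifs were searched on both strands, and of 32851 promoters of the same length 23.25% held TTCCTC, 7.02% held TTCNNNGAA, 6.75% held TGANTCA (AP-1), 3.33% held GGTGTGA (T-box), 2.98% held an interferon response element (ISRE) and 3.90% held an NF-kB motif. A match is a run of letters, not a site shown to be bound. Ebi3 was in the table and held 1 NF-kB and 1 ETS match; Il23a, Il27 and Il12rb1 had no entry.

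The deposited matrices held 28290 cells with between 129151823 and 196362818 UMIs per library, and 26785 cells were kept, between 5779 and 7741 per library. Median UMIs per kept cell were 14267 in the isotype control library, 14443 in the library titled anti-human CTLA-4, 18494 in the library titled anti-mouse FcgRII and 17681 in the combination. Between 2119 and 2568 droplet barcodes per library also occurred in another library, but 0 full barcodes (with the probe barcode that marks the sample) did. The cells fell into 27 clusters, built without the 7 genes, which were assigned from marker genes to monocytes and macrophages (19249 cells), T cells (1847), NK cells and ILC1 (1458), neutrophils (730), dendritic cells (622), B cells (57) and smaller populations, and 2274 cells of a T cell and an NK cell cluster that also carried macrophage genes were kept apart as mixed. The mixed cells were 11.4, 4.43, 6.84 and 10.1% of the 4 libraries in that order and had a median of 29842.5 UMIs, against 5138 in T cells. Clusters of monocytes and macrophages are called by a leading gene, and levels are given as UMIs per 1000000 UMIs of the population (CPM). With 1 library per group no test between groups was possible. The 95% intervals (exact Poisson for a level, exact conditional for a ratio) cover counting error alone, and because the UMIs of 1 cell are not independent they are too narrow. Libraries are always given in the order isotype control, titled anti-human CTLA-4, titled anti-mouse FcgRII, combination. Each gene has its own probes, so levels are compared within a gene only.

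**Figure D1:**
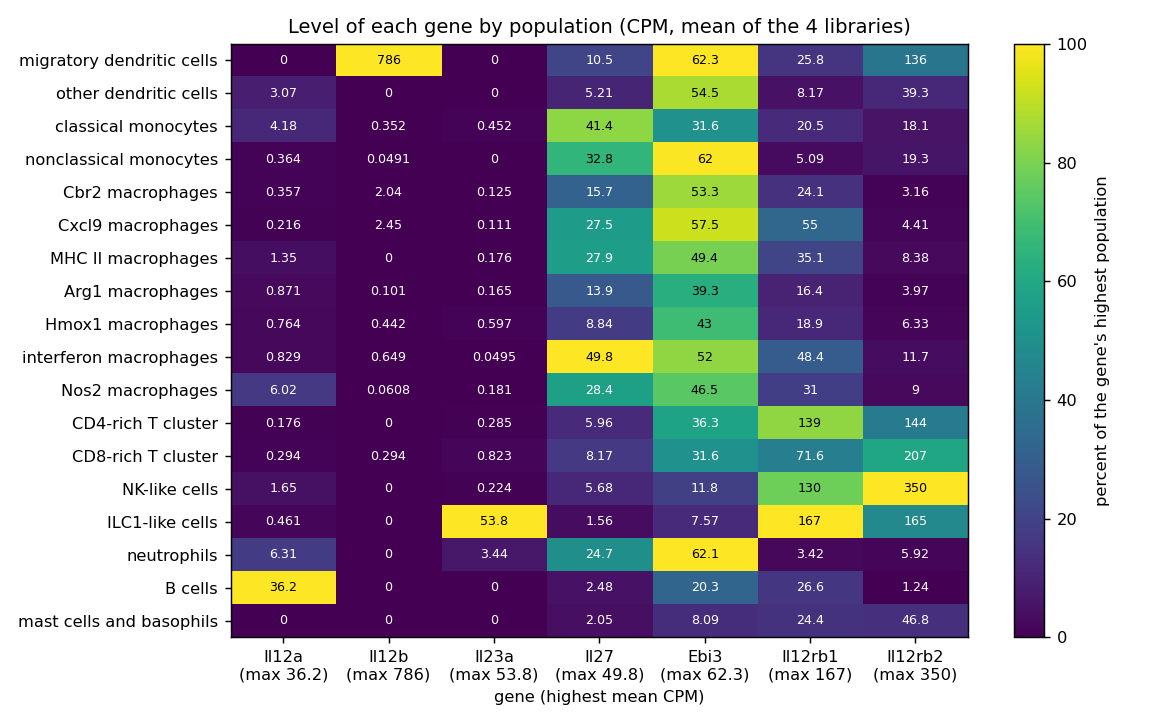
Heat map of the 7 genes (columns) over the cell populations (rows). The mean CPM of the 4 libraries is printed in each cell, and the color is scaled to the highest population of each gene. Il12b peaks in migratory dendritic cells (786 CPM), Il12rb2 in NK-like cells (350), Il12rb1 and Il23a in ILC1-like cells (167 and 53.8), Il27 in interferon macrophages (49.8) and Il12a in B cells (36.2). Ebi3 in migratory dendritic cells (62.3) is nearly level with neutrophils (62.15) and nonclassical monocytes (62.0).

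Il12b, the p40 chain shared by IL-12 and IL-23, was read mainly in migratory dendritic cells, the Ccr7+ Fscn1+ cells that carry antigen to lymph nodes. These 102 cells were 0.381% of all kept cells and held 66.7% of the 1466 Il12b UMIs. In the 4 libraries the migratory dendritic cells held 360, 122, 120 and 376 Il12b UMIs, in 25 of 38, 10 of 16, 6 of 14 and 23 of 34 cells. The levels were 942, 705, 543 and 952 CPM, so over all these cells the isotype control and the combination lay together at the top. Both single-antibody libraries lay below them. This order was not kept without the cells of a subcluster led by macrophage genes, described below, where the combination was lowest. The ratio to the isotype control was 1.01 for the combination (95% interval 0.872 to 1.17), 0.748 (0.604 to 0.921) for the library titled anti-human CTLA-4 and 0.577 (0.465 to 0.711) for the library titled anti-mouse FcgRII. The single-antibody values rest on 10 and 6 cells with a UMI, and the highest cell alone held 35 and 32 UMIs in them. The 520 other dendritic cells held 0 Il12b UMIs, and NK cells and ILC1, neutrophils and B cells held 0 as well.

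Over all dendritic cells, the Il12b level was 134, 65.1, 94.6 and 208 CPM, and the combination stood 1.55-fold (1.34 to 1.80) above the isotype control. The number of migratory cells among the dendritic cells was 38 of 243, 16 of 152, 14 of 98 and 34 of 129, and the summed level of the migratory marker list in dendritic cells was 3574, 3237, 3490 and 5594 CPM, highest in the same library. Within the migratory cells alone, as given above, the combination did not exceed the isotype control. The ratio over all dendritic cells also went to 0.882 with more doublet scores left out, to 0.489 with classes set by marker genes per cell and to 2.39 without integration, so its direction depends on which cells are counted. A subcluster of 61 dendritic cells was led by macrophage genes. Without it the Il12b level in dendritic cells was 111, 81.0, 85.3 and 147 CPM (ratio 1.32, 1.08 to 1.61), and in migratory cells 849, 705, 758 and 643 CPM (ratio 0.757, 0.62 to 0.923). Of the 34 migratory cells of the combination 31 were left, and the combination went from the highest to the lowest level. The macrophage list summed to 7875, 214, 11047 and 5992 CPM in the migratory cells, lowest in the library titled anti-human CTLA-4, and its part in the Il12b level was not tested.

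Monocytes and macrophages held 400 Il12b UMIs, 27.3% of all, in 77 of 19249 cells. Their level was 1.01, 0.939, 1.04 and 0.914 CPM, and the ratio of the combination to the isotype control was 0.903 (0.685 to 1.19), an interval that reaches both sides of 1. The clusters did not all lie on the same side, with Cbr2 macrophages at 0.448 (0.294 to 0.674), Hmox1 macrophages at 0.200 (0.0216 to 0.917) and mitotic macrophages at 2.31 (1.14 to 4.98), where 27 of the 28 UMIs of the combination were in 1 cell. Cells with 3 or more Nos2 UMIs held 1, 16, 5 and 60 Il12b UMIs (0.0666, 0.891, 0.473 and 0.878 CPM), in 1, 5, 2 and 16 cells, and the single UMI of the isotype control leaves a ratio of 13.2 with an interval of 2.28 to 529. Most Il12b UMIs of the class sat in few cells, with 315 of the 400 in 20 cells of 5 or more UMIs. Of those 20 cells, 3 had UMIs of at least 2 of the migratory markers Ccr7, Fscn1 and Cacnb3, against 0.369% of all monocytes and macrophages.

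Il12a, the p35 chain that makes a p40 chain into IL-12, was read mainly in monocytes and macrophages. These were 71.9% of the kept cells and also held 400 Il12b UMIs. The 102 migratory dendritic cells held 0 Il12a UMIs, which allows levels of up to 7.85, 17.3, 13.6 and 7.60 CPM in the 4 libraries (3 UMIs each). In each library this bound is above the level of monocytes and macrophages as a class, so the 0 does not set the classes apart. Of 544 Il12a UMIs in all, 78.9% lay in monocytes and macrophages, where the libraries held 23, 39, 17 and 350 UMIs in 18, 18, 10 and 125 cells. The level was 0.220, 0.447, 0.173 and 2.91 CPM, and the combination stood apart from the other 3 libraries. The combination was 13.2-fold (8.68 to 21.2) above the isotype control, 6.51-fold (4.67 to 9.32) above the library titled anti-human CTLA-4 and 16.8-fold (10.3 to 29.2) above the library titled anti-mouse FcgRII. Over the alternatives the ratio to the isotype control lay between 5.54, with classes set by marker genes per cell, and 18.84, without integration. The library titled anti-human CTLA-4 was 2.03-fold (1.18 to 3.57) above the isotype control, and the library titled anti-mouse FcgRII was at 0.789 of it (0.396 to 1.54). Even so, Il12a was a rare transcript, with a UMI in 0.326, 0.420, 0.217 and 2.59% of monocytes and macrophages at a median depth of 14677 to 20074 UMIs (20073.5 in the combination). Drawn down to 6845 UMIs per cell the shares were 0.163, 0.207, 0.117 and 1.53%. NK cells and ILC1, not a known source of p35 and read at a lower depth (median 4315 to 6016 UMIs), held 3, 3, 3 and 2 Il12a UMIs, a level of 1.10, 1.202, 1.34 and 0.477 CPM. From these few UMIs, the level in monocytes and macrophages was above that of NK cells and ILC1 in the combination, and not in the other 3 libraries.

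Among the clusters, Il12a was highest in the macrophages led by Nos2, the inducible nitric oxide synthase of activated macrophages, and in classical monocytes. In Nos2 macrophages the level was 1.67, 5.43, 1.40 and 15.6 CPM (4, 18, 4 and 128 UMIs), a ratio of 9.31 (3.55 to 34.7) between the combination and the isotype control. In classical monocytes it was 1.07, 3.45, 2.19 and 10.0 CPM (5, 12, 6 and 57 UMIs), a ratio of 9.38 (3.79 to 29.99). The order of the libraries was nearly the same in both clusters, with the combination highest and the library titled anti-human CTLA-4 next. MHC II macrophages held 0, 0.447, 0 and 4.95 CPM, and the combination was 16.3-fold above a bound of 3 UMIs for the isotype control. However, 59.5% of their 42 combination UMIs were in 1 cell of 11. Arg1 macrophages held 0, 0, 0.171 and 3.31 CPM, with the combination 7.4-fold above the same bound, and Cbr2 macrophages held 0.0976, 0, 0.111 and 1.22 CPM. The bound leaves out the counting error of the combination.

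Cells with 3 or more Nos2 UMIs numbered 619, 795, 437 and 2438 among the monocytes and macrophages, so these cells were themselves most numerous in the combination. Within the Nos2-high cells the Il12a level was 0.466, 1.61, 0.0946 and 4.32 CPM, a ratio of 9.26 (4.44 to 23.2). Within the other monocytes and macrophages it was 0.178, 0.144, 0.183 and 1.06 CPM, a ratio of 5.93 (3.35 to 11.1). The higher level in the combination was thus present on both sides of the Nos2 limit. Cells without any Cd3 UMI gave a ratio of 14.2 (9.02 to 23.5). The neutrophil marker list in monocytes and macrophages summed to 155, 176, 147 and 333 CPM, and its part in the Il12a level was not tested.

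**Figure D2:**
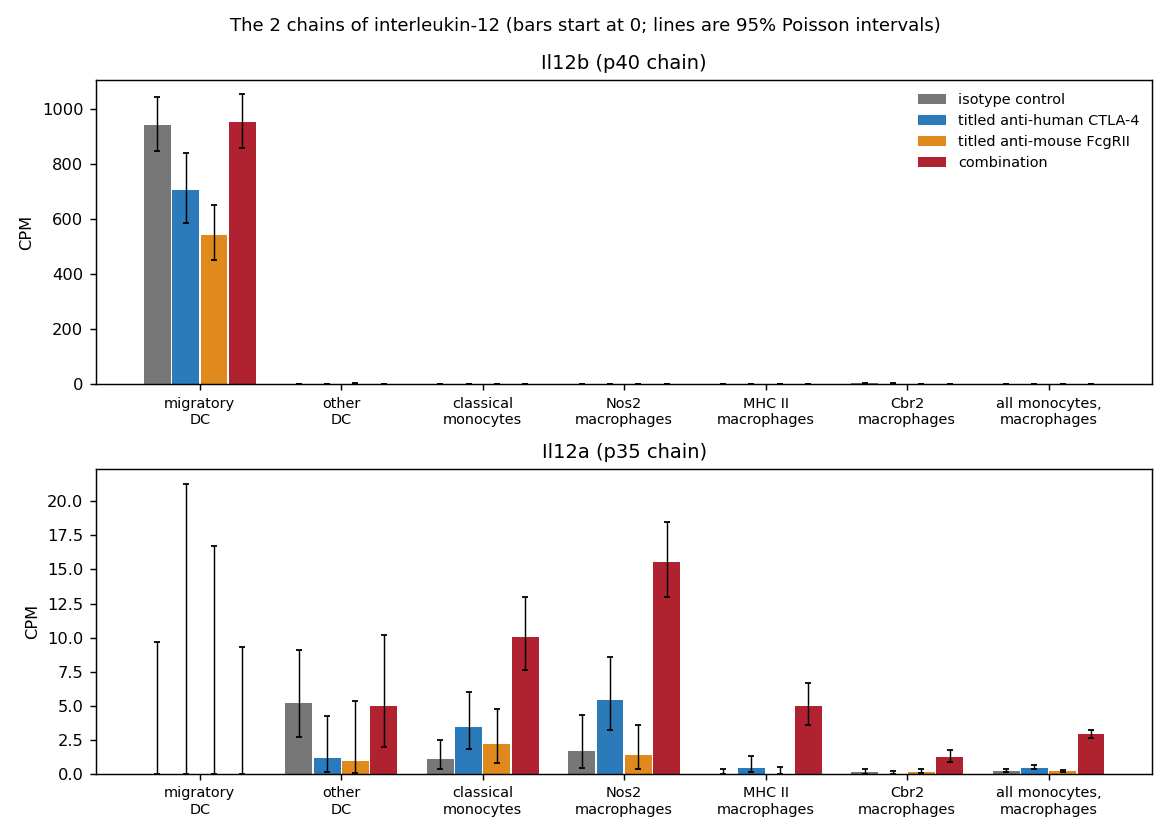
Bars of the level (CPM, linear axes from 0) of Il12b and of Il12a in dendritic cells and in monocyte and macrophage populations, 1 bar per library, with exact Poisson 95% intervals for counting error. Il12b stands at 543 to 952 CPM in migratory dendritic cells, where Il12a is at 0, while Il12a reaches 15.6 CPM in Nos2 macrophages of the combination.

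Outside the monocytes and macrophages, Il12a was highest in B cells and in dendritic cells with plasmacytoid markers, in both cases from few UMIs. The 57 B cells held 4, 5, 2 and 2 Il12a UMIs (19.9, 59.0, 33.1 and 32.7 CPM). The pDC-like cells (21, 11, 4 and 6 cells) held 6, 2, 1 and 6 UMIs, which are 15 of the 22 Il12a UMIs of all dendritic cells. Over dendritic cells the level was 4.47, 1.07, 0.788 and 3.88 CPM, with a ratio of 0.868 (0.289 to 2.39), too wide an interval to give a direction. Neutrophils held 0, 4, 2 and 16 Il12a UMIs.

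Cells with both chains of IL-12 were few, as were cells with either chain. Of 26785 cells, 248 had an Il12a UMI and 160 an Il12b UMI, and 2 had both. Both cells were monocytes or macrophages of the combination. For IL-23, 101 cells had an Il23a UMI and 0 of them an Il12b UMI. With so few cells holding each chain, counts this low would be seen even if the chains were read independently. They are therefore not a result about the chains. Il12a and Ebi3, the chains of IL-35, were found together in 107 cells, of which 8, 5, 4 and 67 were monocytes or macrophages. Ebi3 itself was read in 12266 of the 26785 cells. In the Nos2 macrophages of the combination 23 of 361 cells had both. At these depths a cell that holds both chains can show only 1, and RNA of another cell in the same droplet can add a chain, so these are counts of barcodes and not of cells that make both.

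Il23a, the p19 chain of IL-23, had 430 UMIs in 101 cells, and 0 in the 622 dendritic cells. Most of them came from 1 cell. NK cells and ILC1 held 286, 2, 1 and 4 Il23a UMIs (104, 0.802, 0.446 and 0.955 CPM), and all 286 of the isotype control lay in 3 of its 101 ILC1-like cells, with 280 in 1 cell of 25082 UMIs. The peak of Il23a in ILC1-like cells in the heat map is therefore the value of a single cell. The ratio of the combination to the isotype control in NK cells and ILC1 was 0.00914 with that cell and 0.219 without the highest cell of each library. In monocytes and macrophages the libraries held 17, 11, 11 and 40 Il23a UMIs, a level of 0.162, 0.126, 0.112 and 0.332 CPM, and the ratio was 2.05 (1.14 to 3.85) with 11 of the UMIs in 1 cell. Of these, Hmox1 macrophages held 4, 0, 0 and 22. Neutrophils held 1, 0, 0 and 23 Il23a UMIs, the 23 spread over 12 of 467 cells, but the single UMI of the isotype control leaves a ratio of 6.05 with an interval of 0.982 to 249.

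Il27, the p28 chain of IL-27, was a gene of monocytes and macrophages, which held 81.1% of its 10688 UMIs and were 71.9% of the kept cells. Their level was 18.0, 22.2, 13.2 and 29.4 CPM, highest in the combination and lowest in the library titled anti-mouse FcgRII. The combination was 1.63-fold (1.54 to 1.72) above the isotype control, 1.32-fold above the library titled anti-human CTLA-4 and 2.22-fold above the library titled anti-mouse FcgRII. The library titled anti-human CTLA-4 was 1.23-fold (1.16 to 1.31) above the isotype control and the library titled anti-mouse FcgRII at 0.733 of it (0.682 to 0.787). An Il27 UMI was seen in 21.3, 26.7, 18.0 and 38.4% of these cells, and in 11.4, 13.4, 8.16 and 17.5% once each cell was drawn down to 6845 UMIs. NK cells and ILC1, which should lack the gene and were read at a median depth of 4315 to 6016 UMIs, had a UMI in 2.26, 0.946, 2.10 and 2.93% of cells and a level, which does not depend on depth, of 3.29, 2.81, 3.12 and 4.30 CPM.

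The size of the difference in Il27 was not the same in all clusters. Classical monocytes, with 46.0, 45.1, 28.8 and 45.8 CPM, were level between the isotype control and the combination (ratio 0.995, 0.827 to 1.198). Interferon macrophages, the cluster with the highest mean, had 46.0, 49.0, 43.6 and 60.6 CPM (ratio 1.32). Nos2 macrophages had 30.1, 33.5, 8.03 and 42.0 CPM, where the low value of the library titled anti-mouse FcgRII was 0.267 (0.159 to 0.432) of the isotype control. Of the clusters named here, those with low Il27 in the isotype control gave the larger ratios. The isotype control level also divides each ratio, so this order is not a separate result. Hmox1 macrophages had 5.50, 7.24, 3.50 and 19.1 CPM (ratio 3.47, 2.62 to 4.67), Arg1 macrophages 11.3, 14.7, 6.52 and 23.1 CPM (2.03) and Cbr2 macrophages 13.1, 14.8, 10.51 and 24.5 CPM (1.87). Dendritic cells lay at 6.70, 5.34, 6.30 and 5.54 CPM with a ratio of 0.826.

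Ebi3, the partner chain of Il27 and of Il12a, was the most widely read cytokine chain of the family, with 26859 UMIs in 12266 cells. Monocytes and macrophages, 71.9% of the kept cells, held 77.2% of these UMIs. In those cells the level was 49.5, 53.2, 49.0 and 50.7 CPM, and the ratio of the combination to the isotype control was 1.02 (0.986 to 1.06). Dendritic cells had 54.7, 61.4, 53.6 and 55.4 CPM (ratio 1.01, 0.777 to 1.31). In neither class did Ebi3 show the order of libraries that Il27 showed. Cells with UMIs of both chains of IL-27 were 11.9, 16.1, 11.2 and 24.4% of monocytes and macrophages, and 2.96, 3.90, 2.19 and 4.66% at 6845 UMIs per cell. Over all cells 3827 had both, out of 6063 with Il27 and 12266 with Ebi3.

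**Figure D3:**
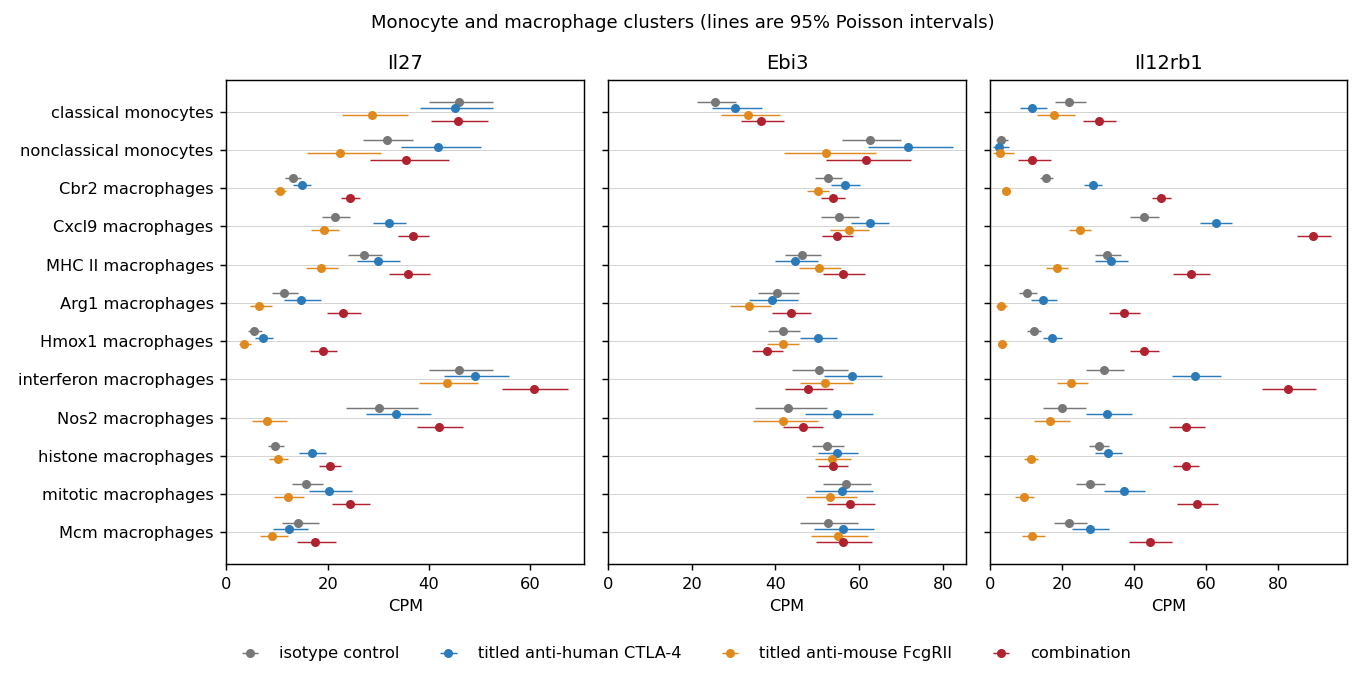
Levels (CPM) of Il27, Ebi3 and Il12rb1 in 12 clusters of monocytes and macrophages, 1 point per library, with the small Lyve1 (146 cells) and heat shock (209 cells) clusters left out. Il27 and Il12rb1 points of the combination lie to the right of those of the isotype control in most clusters, with Il27 in classical monocytes as an exception (45.8 against 46.0 CPM), while the Ebi3 points of the 4 libraries lie close together.

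Lymphocytes carried Ebi3 too. Regulatory T cells (81, 49, 41 and 9 cells), in which Ebi3 is known as a chain of IL-35, had 78.3, 87.2, 61.3 and 58.4 CPM. CD8 T cells had 29.99, 12.5, 35.3 and 25.1 CPM, so the regulatory T cells lay above the CD8 T cells in every library. In the combination this rests on 9 regulatory T cells. Conventional CD4 T cells had 19.5, 30.3, 36.4 and 80.4 CPM (12, 26, 11 and 56 UMIs in 10, 17, 8 and 28 cells), and the combination was 4.13-fold (2.19 to 8.47) above the isotype control. NK-like cells went the other way, with 15.8, 0, 25.1 and 6.45 CPM and a ratio of 0.407. The macrophage list in NK cells and ILC1 summed to 6098, 1462, 8274 and 2311 CPM, in the same order of libraries as their Ebi3 level of 13.5, 1.60, 17.9 and 5.73 CPM. In the NK cells and ILC1 in which macrophage markers took less than 1% of UMIs, Ebi3 stood at 8.62, 1.27, 4.84 and 3.41 CPM. Without integration of the libraries the ratio of the combination to the isotype control in NK cells and ILC1 was 0.869. In T cells the macrophage list summed to 10651, 6291, 16910 and 9834 CPM. Of their 610 Ebi3 UMIs, 243 lay in T cells under the same 1% limit. How far macrophage RNA sets the Ebi3 level in lymphocytes was not tested.

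Il12rb2, the chain that makes the IL-12 receptor able to signal through STAT4, was highest in NK-like cells, at 250, 502, 260 and 388 CPM. ILC1-like cells are a cluster led by Gzmc, Gzmd and other granzymes. Of these 101, 116, 83 and 196 cells, 60, 63, 45 and 124 had a UMI of Eomes, a gene of NK cells. Itga1 was seen in 77, 95, 70 and 160 of them, and Cd200r1 in 16, 31, 26 and 55. The name thus does not mean cells without Eomes. The Il12rb2 level was 142, 212, 146 and 161 CPM in ILC1-like cells and 141, 262, 169 and 259 CPM in CD8 T cells. NK-like cells were above both in every library, while the ranges of ILC1-like and CD8 T cells overlap, as do those of conventional CD4 T cells (135, 231, 49.6 and 246 CPM). Regulatory T cells were lowest among the T cells, at 34.4, 67.0, 42.7 and 51.1 CPM. Neutrophils, which should lack the receptor, had an Il12rb2 UMI in 13 of 730 cells (1.78%, median depth 3208 UMIs).

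Both libraries whose titles name anti-human CTLA-4 had more Il12rb2 in T cells. The level was 116, 240, 122 and 220 CPM, with the library titled anti-mouse FcgRII next to the isotype control. The ratio to the isotype control was 2.07 (1.86 to 2.30) for the library titled anti-human CTLA-4, 1.90 (1.71 to 2.12) for the combination and 1.05 (0.916 to 1.21) for the library titled anti-mouse FcgRII. The same pair of libraries was above the others in the share of T cells with an Il12rb2 UMI, with the combination highest. The shares were 36.4, 52.4, 39.8 and 65.7% as read and 19.1, 33.3, 20.8 and 38.9% at 1 depth per cell. The ratio of the combination to the isotype control was 1.84 (1.58 to 2.16) in CD8 T cells and 1.82 (1.40 to 2.40) in conventional CD4 T cells. In conventional CD4 T cells the library titled anti-mouse FcgRII lay at 0.369 (0.197 to 0.644) of the isotype control, from 45 cells. Regulatory T cells made up 81 of 434, 49 of 681, 41 of 254 and 9 of 478 T cells, and 108, 104, 67 and 120 T cells fell in no named subset. Mixed cells are not in these counts. Foxp3, a gene of regulatory T cells, was among the leading genes of the mixed T cell cluster (723, 225, 334 and 633 cells). Among the T cells so counted, the Il12rb2-low cells were also the fewest in the combination.

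In NK cells and ILC1 as 1 class Il12rb2 stood at 197, 352, 203 and 236 CPM, a ratio of 1.79 (1.61 to 2.00) for the library titled anti-human CTLA-4, 1.2 (1.08 to 1.34) for the combination and 1.03 for the library titled anti-mouse FcgRII. The library titled anti-human CTLA-4, not the combination, was thus highest. NK-like cells gave a ratio of 2.01 for the library titled anti-human CTLA-4 and 1.55 (1.35 to 1.78) for the combination, and ILC1-like cells 1.13 (0.951 to 1.34) for the combination. Among cells in which macrophage markers took less than 1% of UMIs the levels were 240, 357, 269 and 245 CPM, and the ratio of the combination to the isotype control was 1.02. The 1.2-fold difference was not seen once cells carrying macrophage RNA were left out. In the NK-like cells the ratio went from 1.55 to 1.27 (340, 510, 438 and 432 CPM). The library titled anti-mouse FcgRII was then level with the combination in the NK-like cells. Without integration of the libraries the ratio in NK cells and ILC1 was 0.971.

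The mixed cells, which held 35.1% of all Il12rb2 UMIs and 24.6% of those of Il12rb1, were counted apart. Their Il12rb2 level was 42.9, 80.0, 42.6 and 81.5 CPM. The Il12rb2 ratio to the isotype control was 1.87 (1.70 to 2.05) for the library titled anti-human CTLA-4, 1.90 (1.78 to 2.03) for the combination and 0.995 (0.904 to 1.09) for the library titled anti-mouse FcgRII. The same pair of libraries was above the others as in T cells, with ratios of nearly the same size. Their Il12rb1 level was 55.6, 78.1, 47.3 and 76.8 CPM, and the ratio was 1.41 (1.28 to 1.54) for the library titled anti-human CTLA-4, 1.38 (1.30 to 1.47) for the combination and 0.850 (0.778 to 0.929) for the library titled anti-mouse FcgRII.

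**Figure D4:**
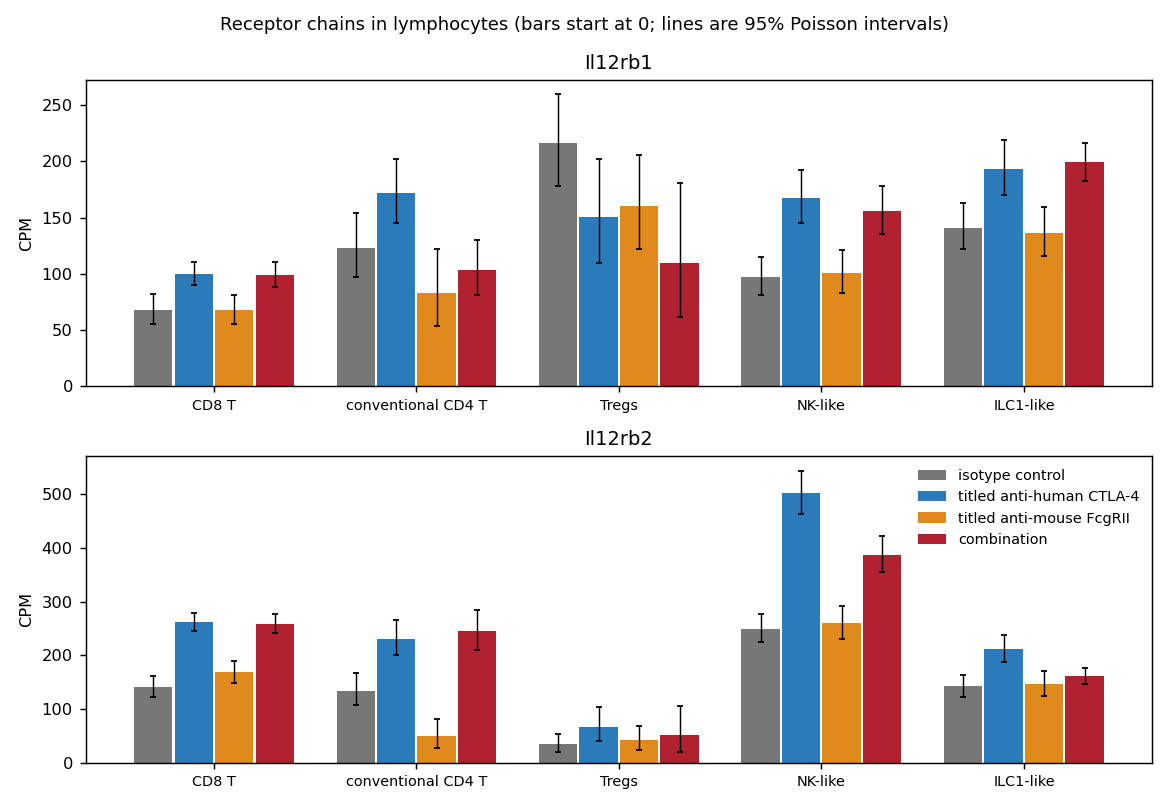
Bars of the level (CPM, axes from 0) of Il12rb1 and Il12rb2 in CD8 T cells, conventional CD4 T cells, regulatory T cells, NK-like cells and ILC1-like cells, 1 bar per library, with exact Poisson 95% intervals. Il12rb2 is highest in NK-like cells (250 to 502 CPM) and lowest in regulatory T cells (34.4 to 67.0 CPM), where Il12rb1 of the isotype control is at 216 CPM.

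Il12rb1, the chain shared by the receptors of IL-12 and IL-23, had a different order among the same cells. Regulatory T cells of the isotype control had the highest level of the T cells, and the subset stood at 216, 151, 160 and 109 CPM (113, 45, 60 and 15 UMIs), a ratio of 0.508 (0.275 to 0.873) that rests on 9 cells of the combination. CD8 T cells had 68.0, 100, 67.6 and 98.5 CPM (ratio 1.45, 1.16 to 1.83), and conventional CD4 T cells 123, 172, 82.7 and 103 CPM (0.839). Over all T cells the level was 114, 122, 86.7 and 103 CPM, a ratio of 0.909 (0.803 to 1.03). The ratio of the combination over all T cells holds subsets that differ in direction. Over the alternatives the ratio in all T cells lay between 0.661 and 0.947. In NK cells and ILC1 Il12rb1 was 119, 181, 119 and 185 CPM, with the library titled anti-human CTLA-4 and the combination (ratio 1.55, 1.36 to 1.77) above the other pair. In NK-like cells (97.1, 167, 101 and 155 CPM) and ILC1-like cells (141, 193, 136 and 199 CPM) the same pair of libraries lay above the other pair. Within the upper pair the combination was the higher in ILC1-like cells, and the library titled anti-human CTLA-4 in NK-like cells.

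Both receptor chains were found together in 2961 cells, out of 8599 with Il12rb1 and 5286 with Il12rb2. Among T cells the share with both was 19.4, 31.4, 23.2 and 36.2%, and 5.32, 9.28, 5.83 and 8.70% at 1 depth per cell. Among NK cells and ILC1 it was 32.8, 34.5, 39.5 and 46.7%, and 9.57, 13.8, 11.5 and 12.3% at 1 depth. The ratio of these shares between the combination and the isotype control was 1.87 as read and 1.64 at 1 depth in T cells, and 1.43 and 1.29 in NK cells and ILC1. With 2 UMIs of each chain required at 1 depth, the ratio in NK cells and ILC1 was 0.937. In monocytes and macrophages the share drawn to 1 depth was 0.556, 0.409, 0.156 and 1.56%, although those cells were read at a higher depth.

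Of the 23161 Il12rb1 UMIs, 55.1% were in monocytes and macrophages, which were also 71.9% of the kept cells. Their level was 22.7, 32.3, 10.6 and 54.2 CPM, below that of the T, NK-like and ILC1-like cells of the same library, and the 4 libraries differed from each other. The ratio to the isotype control was 2.39 (2.28 to 2.50) for the combination, 1.42 (1.35 to 1.502) for the library titled anti-human CTLA-4 and 0.466 (0.433 to 0.502) for the library titled anti-mouse FcgRII. At 6845 UMIs per cell 10.49, 14.9, 5.79 and 24.4% of cells had an Il12rb1 UMI (20.2, 28.9, 12.5 and 45.4% as read). Neutrophils, which should lack it, had 2 of 119, 0 of 96, 0 of 48 and 13 of 467 cells with a UMI, at median depths of 3031 to 3489, and a level of 3.91, 0, 0 and 9.77 CPM.

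Il12rb1 was higher in the combination than in the isotype control in macrophages of several kinds. Hmox1 macrophages had 12.2, 17.3, 3.50 and 42.8 CPM (ratio 3.51), Arg1 macrophages 10.4, 14.7, 3.09 and 37.2 CPM (3.56) and Cbr2 macrophages 15.7, 28.5, 4.57 and 47.5 CPM (3.03). Cxcl9 macrophages with 42.8, 62.7, 24.9 and 89.7 CPM (2.10) and interferon macrophages with 31.6, 56.9, 22.6 and 82.6 CPM (2.62) had higher levels and smaller ratios. In all 5 the library titled anti-mouse FcgRII was lowest and the combination highest. Classical monocytes had 22.0, 11.8, 17.8 and 30.3 CPM (1.37), so the size of the ratio did not follow the isotype control level in all clusters.

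Lymphocyte RNA in the same cells was measured beside it. The T cell list summed to 97.3, 44.3, 18.6 and 99.4 CPM and the NK list to 73.6, 29.6, 9.28 and 66.7 CPM in monocytes and macrophages, nearly equal in the isotype control and the combination. Cells without any Cd3 UMI had 19.2, 31.2, 10.0 and 50.7 CPM of Il12rb1, and a ratio of 2.64 (2.50 to 2.80). That filter does not remove RNA of NK cells, and the part of lymphocyte RNA in the Il12rb1 level was not tested. The number of Il12rb1 UMIs per Il12rb2 UMI in monocytes and macrophages was 3.04, 5.39, 3.41 and 4.60, against 0.981, 0.509, 0.712 and 0.469 in T cells and 0.603, 0.513, 0.585 and 0.781 in NK cells and ILC1. In cells without a Cd3 UMI it was 3.52, 6.85, 3.78 and 6.48. Il12rb2 in monocytes and macrophages was low, at 7.48, 5.99, 3.11 and 11.8 CPM (ratio 1.58).

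Dendritic cells had 8, 16, 12 and 44 Il12rb1 UMIs (2.98, 8.54, 9.46 and 24.4 CPM), a ratio of 8.18 (3.81 to 20.1). Of the 44 UMIs of the combination 38 lay in 14 cells of the subcluster led by macrophage genes, and without that subcluster the ratio was 1.71 (0.456 to 6.38). With classes set by marker genes per cell it was 1.02. The T cell list in dendritic cells summed to 32.0, 10.7, 97.7 and 110 CPM. Il12rb2 in dendritic cells was 34.6, 56.0, 40.2 and 80.8 CPM (ratio 2.33, 1.79 to 3.06), and without that subcluster 39.0, 63.1, 31.3 and 73.1 CPM (1.87), with a ratio of 1.08 where classes were set by marker genes per cell. In migratory dendritic cells it stood at 70.7, 220, 118 and 137 CPM.

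**Figure D5:**
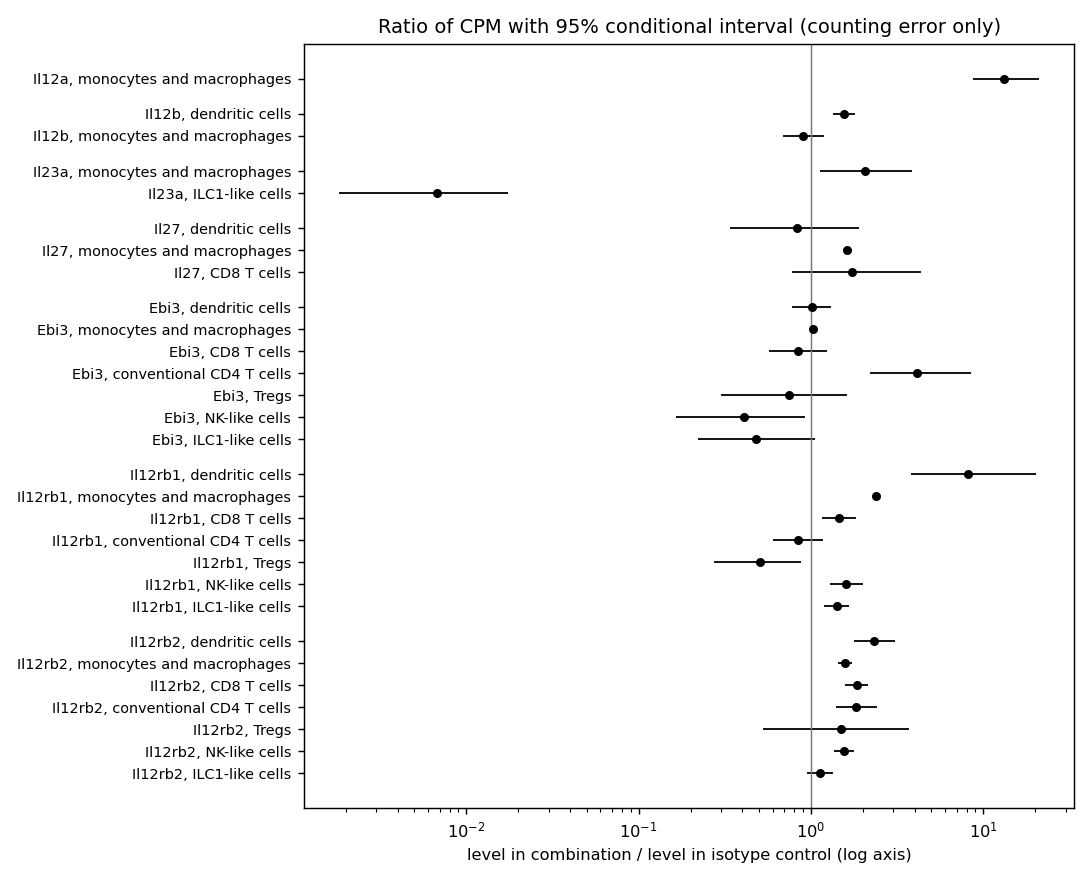
Ratio of the combination to the isotype control (log axis) for each gene in the main cell classes, with 95% conditional intervals for counting error and a line at 1. The Il12a ratio in monocytes and macrophages (13.2) lies apart from Il12b (0.903), and the ratios of Ebi3 in monocytes and macrophages and in dendritic cells lie at 1.02 and 1.01.

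The counts of family genes past 2-fold between the combination and the isotype control were set beside those of all genes with at least 20 UMIs over both libraries. In monocytes and macrophages all 7 genes passed that minimum. Of these, 3 were at least 2-fold higher (Il12a, Il23a and Il12rb1) and 0 at least 2-fold lower, against 3.53% of 12734 genes higher and 3.84% lower. The Il23a call was near the limit, with 11 of the 40 UMIs of the combination in 1 cell. In dendritic cells 2 of 5 were higher (Il12rb1 and Il12rb2) and 0 lower, against 3.11% and 4.31% of 9745 genes. Neither of these 2 genes was past 2-fold once the dendritic subcluster led by macrophage genes was left out. With classes set by marker genes per cell their ratios were 1.02 and 1.08. In T cells 0 of 4 were higher and 0 lower, against 1.93% and 2.09% of 10648 genes. In NK cells and ILC1 0 of 5 were higher and 2 lower (Il23a, from 1 cell, and Ebi3), against 2.28% and 3.67% of 10274 genes. The median ratio of all genes was 0.924 in monocytes and macrophages, 0.927 in dendritic cells, 0.966 in T cells and 0.986 in NK cells and ILC1. A gene that passed the minimum through 1 library alone had to lie far from 1.

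Other genes of the pathway were followed as fixed lists. Genes that IL-12 induces in lymphocytes (Ifng, Tbx21, Il18r1, Il18rap, Gadd45g, Socs1, Gzmb) all passed the minimum in each class. In T cells 0 of 7 were past 2-fold in either direction, and their median ratio was 1.31 beside 0.966 for all genes. Ifng, the interferon that IL-12 is known to drive, was at 387, 974.7, 241 and 647 CPM in T cells, highest in the libraries titled with anti-human CTLA-4. In NK cells and ILC1 0 were higher and 1 of 7 was lower, Ifng, at 230, 263, 148 and 99.1 CPM (ratio 0.431, 0.380 to 0.489). T cells and NK cells therefore had the combination on opposite sides of the isotype control for Ifng, and the difference was not tested. NK-like cells had 357, 453, 221 and 228 CPM of Ifng, and ILC1-like cells 98.7, 85.4, 74.8 and 34.7 CPM. ILC1-like cells were 101 of 354 cells of the class in the isotype control and 196 of 443 in the combination. The cells with less Ifng were thus also a larger part of the class in the combination. In monocytes and macrophages 1 of 7 was higher, Socs1, an inhibitor of cytokine signaling, at 96.4, 131, 66.1 and 310 CPM (3.22). In dendritic cells 4 of 7 were higher: Ifng at 3.35, 2.13, 0.79 and 131 CPM, Gzmb with a ratio of 13.2, Socs1 with 2.77 and Tbx21 with 2.43. The 237 Ifng UMIs of the combination lay in 6 of its 129 dendritic cells, and 235 of them in 4 cells outside the migratory cluster. Ifng and Gzmb are genes of T cells and NK cells, and the T cell list in these dendritic cells, given above, was highest in the combination (110 CPM) and the library titled anti-mouse FcgRII (97.7 CPM). Its part in these values was not tested.

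Stat4, the factor through which the IL-12 receptor signals, had a ratio of the combination to the isotype control of 1.07 (0.989 to 1.16) in T cells and 1.06 (0.981 to 1.15) in NK cells and ILC1. Jak2 and Tyk2, the kinases bound to that receptor, had 1.04 and 1.09 in T cells and 1.02 and 0.989 in NK cells and ILC1. Of the receptor chains Il23r, Il27ra and Il6st, 1 of those with enough UMIs was past 2-fold in the 4 classes, Il23r in T cells. Il23r, the chain that pairs with Il12rb1 for IL-23, stood at 12.004, 4.42, 5.10 and 5.15 CPM there. The ratio of the combination to the isotype control was 0.429 (0.261 to 0.692). Both single-antibody libraries were also at least 2-fold below the isotype control. The Il23r UMIs lay in 17, 5, 7 and 12 T cells. Of the 10 genes of factors and signals that act on transcription of these cytokines in myeloid cells, among them Irf1, Irf8, Rel and Cd40, 0 were past 2-fold in monocytes and macrophages, where Irf1 had a ratio of 1.84, or in dendritic cells, where Cd40 had 1.99. Of the other cytokines followed beside IL-12, 1 was past 2-fold in the 4 classes, Il10 in T cells, at 55.4, 8.32, 23.6 and 2.66 CPM (0.048, 0.026 to 0.081). Regulatory T cells made up 81 of 434 T cells in the isotype control and 9 of 478 in the combination. Their part in the Il10 level was not tested. Within classical monocytes, Il27ra (8 UMIs in the isotype control, 25 in the combination) had a ratio of 2.57 (1.12 to 6.60). Il10 there (4 and 16 UMIs) had 3.29 (1.06 to 13.5). Of the genes that IL-12 induces, Ifng and Il18r1 were also at least 2-fold higher in this cluster, Ifng with 4 and 67 UMIs. Cd3e, a T cell gene, had 25 and 97 UMIs there (5.35 and 17.1 CPM). The part of lymphocyte RNA in these values was not tested, and the share of all genes past 2-fold was counted in the 4 classes only.

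For each gene the genes most like it were sought over the averages of 18 populations, by the correlation of log2(CPM + 1) among the 7478 genes that reached 50 CPM in some population. The populations share libraries, so the values are descriptions. Il12b lay nearest to Mab21l3 (r = 0.98) and Ubd (0.98), Il27 nearest to C3 (0.93) and Dram1 (0.92), and Ebi3 nearest to Tctex1d2 (0.92) and Marcks (0.89). Among the receptor chains, Il12rb1 lay nearest to Il2rg (0.93), the common chain of several cytokine receptors, and Il12rb2 nearest to Stk39 (0.90). Il12a lay nearest to Gripap1 and Vpreb3 (0.81 each), which like Il12a were highest in B cells, where Il12a had only 13 UMIs. Il23a, whose value is mostly 1 cell, lay nearest to Dsc2 (0.91).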

How the data were processed

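Live CD45+ tumor cells of 4 groups were profiled, 1 library of 11 pooled mice per group. The authors deposited filtered 10x matrices that hold raw UMI counts (whole numbers, genes by cells), not normalized. The submitters' processing notes name Cell Ranger 7.0.0 and mm10, while the file header gives version 7.2.0. A probe assay reads only probed genes.

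Cells with under 500 genes (67), over 10% mitochondrial UMIs (48) or the 5% highest Scrublet scores per library (1409) were left out; Scrublet's own threshold marked between 0 and 1 cells per library, so the score's rank was used, where the study ran another doublet tool. SCTransform and anchor integration (Seurat 5.3.0, sctransform 0.4.2, R 4.3.3) used 3000 features without the 7 genes, 30 components and resolution 0.8; dendritic and NK classes were clustered again at 0.5. Classes were named from marker lists, and the limit that set mixed clusters apart (a macrophage marker score, averaged over z-scored genes, above 0.5 in a T or NK cluster) was chosen after the clusters were seen. Python 3.11.15, numpy 2.4.6, scipy 1.17.1, pandas 2.3.3, scanpy 1.11.5 and matplotlib 3.10.9 were used for the rest.

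UMIs were summed per class and library, and divided by the UMIs of the class (CPM); a value of 0 was bounded at 3 UMIs. No test between groups was made. Shares of cells were also averaged over 100 draws of each cell to the 10th percentile of its class's UMIs, leaving out shallower cells. Genes were named by rule: the 7 members, the pathway genes past 2-fold (Stat4, Jak2, Tyk2, Irf1 and Cd40 were named after their values were seen) and, per member, the genes of highest correlation. The members and lists were chosen with earlier results of these data known. Ratio scripts were tested on simulated data. The alternatives covered scaling, weight of cells, filters, resolution, integration, classes by marker genes, and removal of cells with RNA of another class; 3 more were added after the values were seen. The result of the list of kinases and STATs as a whole is not reported here.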

Additional observations from a re-analysis of the deposited data

Results flagged for a closer look

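For 3 genes the ratio of the combination to the isotype control lay on opposite sides of 1 in different populations, with counting intervals that did not reach 1 on either side; the difference between populations was not tested. Il23a had a ratio of 2.05 in monocytes and macrophages, where 11 of the 40 combination UMIs were in 1 cell. In ILC1-like cells it had 0.00675, where 280 of the 286 isotype control UMIs were in 1 cell. Ebi3 had 4.13 in conventional CD4 T cells and 0.407 in NK-like cells. Of the 59 Ebi3 UMIs of NK-like cells, 13 lay in cells in which macrophage markers took less than 1% of UMIs. For all T cells these were 243 of 610. The part of macrophage RNA in the Ebi3 ratios was not tested. Il12rb1 had 8.18 in dendritic cells, 2.39 in monocytes and macrophages, 1.60 in NK-like cells, 1.41 in ILC1-like cells and 1.45 in CD8 T cells, against 0.508 in regulatory T cells, where the combination held 9 cells. The Il12rb1 value in dendritic cells was 1.71 (0.456 to 6.38) without the subcluster led by macrophage genes and 1.02 with classes set by marker genes per cell. Each side is 1 library, so that the spread between mice is not known.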

How the results depend on the processing

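The ratio of the combination to the isotype control was recomputed under each alternative for the genes and classes set as main results, and 49 of 64 alternative values over 6 results kept their value within its counting interval, 12 moved and 3 went to the other side of 1 from a value whose interval did not reach it. Of the kept or moved values, 4 crossed 1 from values whose interval already spanned it. The Il12b ratio in dendritic cells, 1.55 as reported, was 2.14 as a mean over cells, 2.39 without integration, 1.24 without cells carrying RNA of another class, and went below 1 with 10% of doublet scores left out (0.882) and with classes set by marker genes per cell (0.489); of the alternatives added after the values were seen, it was 1.32 without the subcluster led by macrophage genes and 1.01 in migratory cells only. The Il27 ratio in monocytes and macrophages (1.63) was 1.76 with size factors and 1.51 with marker genes per cell. The Il12rb1 ratio in T cells (0.909) was 0.784 without integration, 0.661 with marker genes per cell and 0.749 without cells carrying macrophage RNA. The Il12rb2 ratio in NK cells and ILC1 (1.2) was 0.971 without integration, 1.02 with marker genes per cell (1.015) and 1.02 (1.023) without cells carrying macrophage RNA. The cause of these shifts was not tested. Il23a gave no ratio in dendritic cells, which held 0 UMIs. Of 158 alternative values for the other 30 results, 129 kept their value and 29 moved; 7 crossed 1, all from values whose interval spanned it, among them Ebi3 in T cells (0.767 to 1.19) and Il12b in monocytes and macrophages (0.679 to 1.07). The Il12a ratio in monocytes and macrophages (13.2) ranged from 5.54 to 18.84. No paired analysis was possible because each group was 1 library. With 1 library a group, no spread between mice is known, and genes with few UMIs (Il12a, Il23a) are limited by depth.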
